A study of Mus musculus with 3 samples.

Results

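Cluster 3 is one of 13 clusters that the authors numbered, without names, in a single-cell experiment on mouse brains with metastases of E0771, a mammary carcinoma line. The cells described here are all those with cluster number 3 and a hashing call to a brain with metastases, 1180 of 12421 cells in the deposited tables. Metastasis 1 gave 322 of them and metastasis 2 gave 858. They are set beside the cells of cluster 0 from the same 2 brains (1640 and 1512 cells), the largest group of similar cells. The number 3 was assigned from RNA, so the RNA differences between clusters 3 and 0 are a description and carry no test.

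All mice were female C57BL/6 animals of 2 to 3 months, and those with metastases had received E0771 cells into the carotid artery about 2 weeks earlier. After perfusion with PBS, the tissue (1 brain hemisphere by the labels' description) was dissociated with a papain-based kit and enriched for mononuclear cells on Percoll. Each brain was stained with 6 antibodies (against CD3, CD4, CD11b, CD25, CD45 and CD86) and a hashing antibody of its own, and the suspensions were pooled for a single 10x 3' v2 run. By the series' design 6 samples shared the pool; the tables used here hold 4 hashing antibodies, 2 of naive brains and 2 of brains with metastases. The labels name the source as brain cells together with metastatic tumour cells and do not say which cells are tumour. Whether each brain is a separate animal, or was handled on another day, is not stated, so spread and p-values between brains measure only the spread between these suspensions.

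Interferons are secreted proteins that signal through paired receptors and JAK kinases to STAT transcription factors. The type I interferons act mainly through a complex of STAT proteins with IRF9, which binds the interferon-stimulated response element in promoters, and interferon gamma acts through STAT dimers at gamma-activated sites. The genes switched on block viruses, alter protein turnover, raise antigen presentation on MHC class I, attract leukocytes and, through USP18 and SOCS proteins, damp the signal again.

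Cluster 3 held 6.01% of the cells of metastasis 1 (95% exact binomial interval 5.39 to 6.68, 5360 cells) and 13.9% of metastasis 2 (13.04 to 14.78, 6174 cells). The intervals cover counting error only and do not overlap. Cluster 3 cells held a median of 13807.5 and 13972.5 unique molecular identifiers (UMIs, one per captured RNA molecule) in the 2 brains, beside 13259.5 and 15283 in cluster 0. Summed over cells, cluster 3 had 4523263 and 12960493 UMIs and cluster 0 had 22899620 and 24548961. The clusters were thus alike in depth per cell, while cluster 3 of metastasis 1 had the smallest sum and its low genes are the least precise.

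The 6 marker genes given for these cells were all present. Their summed level was 1297 and 1084 CPM (UMIs of a gene scaled so that each sum of cells totals 1000000) in cluster 3 of metastasis 1 and 2, beside 122 and 148 in cluster 0. The word tumour rests on less. Of 11 markers of mammary carcinoma, 3 had any UMI in cluster 3 of metastasis 1 and 5 in metastasis 2, and nearly all of their UMIs were of Krt8, an epithelial keratin. Krt8 stood at 456 and 751 CPM in cluster 3, 432 and 656 in cluster 0, and also at 444 and 664 in cluster 11, which is rich in mural cell markers. Krt18, the usual partner of Krt8, was at 1.77 and 0.23 CPM, and Epcam, a surface protein of epithelia, had 0 and 2 UMIs. The cells are therefore called by their cluster number.

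Markers of several other cell types were higher in cluster 3 than in cluster 0, most of them at low levels. The 6 pan-leukocyte markers summed to 31.8 and 26.7 CPM in cluster 3 and 25.02 and 22.93 in cluster 0, beside 5138 and 4753 in the leukocyte cluster 2. The 9 mural markers, led by the smooth muscle actin Acta2, summed to 112 and 104 CPM in cluster 3 and 50.7 and 34.4 in cluster 0, against 2407 and 1894 in cluster 11. The 10 endothelial markers summed to 18.4 and 50.2 CPM in cluster 3 and 8.43 and 11.3 in cluster 0, beside 4702 and 3973 in the endothelial cluster 6. Most of the endothelial sum was Ly6c1, at 11.5 and 44.0 CPM, while Cldn5, which seals endothelial junctions, was at 0.66 and 0.93. T cell markers summed to 8.401 and 4.321 CPM against 3.89 and 2.49, and NK cell markers to 4.86 and 3.63 against 2.45 and 1.47. The dendritic cell list summed to 1952 and 1906 CPM against 1211 and 1184, mostly through Bst2, an interferon-responsive gene; without Bst2 it was at 206 and 179.7 against 217 and 186. The monocyte list, led by S100a4, summed to 303 and 643 CPM against 281 and 442, and the microglia list, led by Sparc, to 512 and 705 against 482 and 586. The part of these markers in the results was not tested. In cells with no UMI of the 6 leukocyte markers (220 and 588 cells of cluster 3) the same 35 genes described next were past the fold. Those genes were chosen in all cells, these included, and cells with UMIs of the other lists were kept.

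Genes were compared within each brain as log2 of (CPM in cluster 3 + 5) over (CPM in cluster 0 + 5), so values of low genes are pulled towards 0. A gene entered when the mean of its 2 cluster levels was at least 10 CPM in both brains, which 6656 of 31053 genes did. Of these, 35 were at least 2-fold higher in cluster 3 in both brains, 0.526% of the genes that entered, and 0 were at least 2-fold lower (0.0%). By any amount, 2272 genes were higher in both brains (34.1%) and 2207 were lower. The median over all genes that entered was 0.00.

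Most of the 35 genes are known interferon-stimulated genes: 26 were on 1 of 5 interferon lists, 6 were on another list only (Ccl2, Ccl5, Ccl7, Lgals9, Ly6a and Psmb9), and 3 were on none (Trafd1, Apol9a and Apol9b). Of all 6656 genes that entered, the type I list held 28, the GTPases 1 and the nucleic acid sensors 7. The receptors, STATs and IRFs held 12 and the brakes 5. The lists were chosen with earlier results of these data known, so the count of 26 is description only. The genes just inside the 2-fold limit, by the smaller difference of the 2 brains, were Ccl2 at 1.08, Ifi35 at 1.09, Trafd1 at 1.10 and Lgals9 at 1.10. Just outside were Spp1 at 0.98, Acta2 at 0.94, Psmb8 at 0.93 and Tap1 at 0.92. Psmb9, inside the limit, and Psmb8 and Tap1, outside it, all serve antigen processing.

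**Figure D1:**
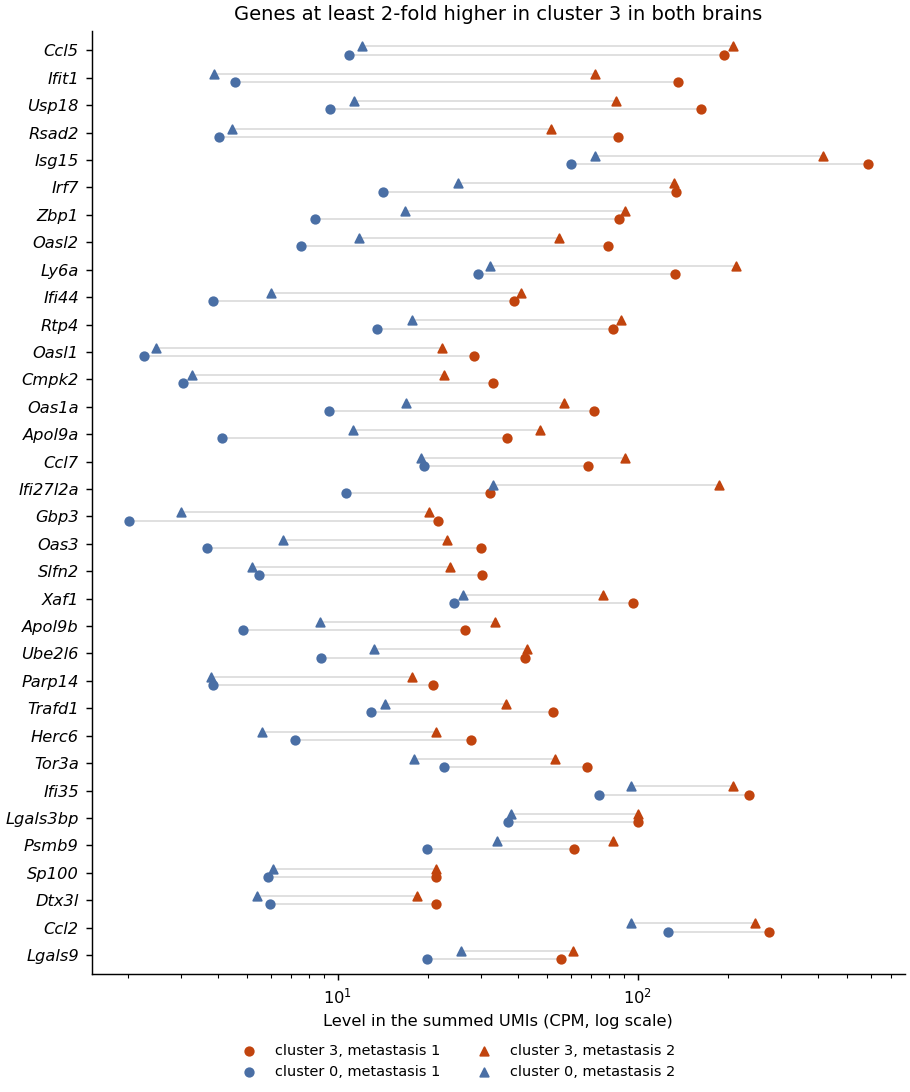
Level of 34 of the 35 genes in CPM of the summed UMIs (horizontal log axis), in cluster 3 (orange) and cluster 0 (blue), for metastasis 1 (circles) and metastasis 2 (triangles). Lines join the 2 clusters of a brain, and genes run from the largest mean difference (Ccl5, 3.64 on the log2 scale) to the smallest (Lgals9, 1.197).

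Isg15 and genes of enzymes that attach or remove its protein differed between the clusters. Isg15, a ubiquitin-like protein that is attached to other proteins, was at 584 and 416 CPM in cluster 3 of the 2 brains and at 59.9 and 72.2 in cluster 0, a mean log2 difference of 2.81 ± 0.52 (SD, n = 2 brains). Usp18, which removes ISG15 and also blocks the type I receptor, was at 163 and 84.7 against 9.43 and 11.4 CPM (3.00 ± 0.77). Both genes were higher in cluster 3 of metastasis 1 than of metastasis 2. In neither did the ranges of the 2 clusters overlap, which the choice of these genes by fold makes likely. How often this held over all genes was not computed. Ube2l6, the conjugating enzyme, was at 42.2 and 42.8 against 8.78 and 13.2 CPM, and Herc6, the main mouse ISG15 ligase, at 27.9 and 21.2 against 7.21 and 5.58. Uba7, the activating enzyme, was too low to enter, at 1.55 and 2.55 against 0.44 and 0.53 CPM.

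Genes against viral RNA were among the most different. Ifit1, which binds foreign RNA caps, was at 136 and 72.2 CPM in cluster 3 and at 4.54 and 3.87 in cluster 0 (log2 3.89 and 3.12). Rsad2 (viperin), which makes a chain-terminating nucleotide, was at 86.2 and 51.4 against 4.02 and 4.44 CPM (3.34 and 2.58). Cmpk2, a nucleotide kinase encoded next to Rsad2, was at 32.9 and 22.7 against 3.06 and 3.26 CPM. All 3 were higher in cluster 3 of metastasis 1 than of metastasis 2, while their cluster 0 levels hardly differed between brains.

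The oligoadenylate synthetases make the messenger that activates RNase L, and Oasl1 and Oasl2 are their relatives. Oas1a was at 71.6 and 57.0 CPM in cluster 3 and 9.39 and 16.9 in cluster 0, and Oas3 at 30.1 and 23.2 against 3.67 and 6.56. Oasl2 was at 79.4 and 54.6 against 7.56 and 11.8 CPM, and Oasl1, which restrains translation of Irf7, at 28.5 and 22.2 against 2.27 and 2.49. Reads of Oas1a and its near copy Oas1g (19.2 and 16.9 against 1.66 and 2.97 CPM, not entered) may be split between them by the counting. The same holds for Apol9a (36.7 and 47.2 against 4.11 and 11.2 CPM) and Apol9b (26.5 and 33.5 against 4.85 and 8.72), 2 apolipoprotein L genes of nearly the same sequence.

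Other effectors past the fold had mixed roles. Ifi44 was at 38.7 and 40.9 against 3.84 and 5.99 CPM, and Rtp4, a chaperone of receptors, at 82.5 and 88.0 against 13.5 and 17.7. Slfn2, of the Schlafen family, was at 30.3 and 23.8 against 5.46 and 5.17 CPM. Xaf1, a pro-apoptotic partner of XIAP, was at 96.8 and 76.5 against 24.5 and 26.2 CPM. Gbp3 was the 1 interferon-inducible GTPase of 20 in the table that entered, and it did so only through its level in cluster 3. It was at 21.7 and 20.2 against 2.01 and 3.01 CPM. These genes stood at similar levels in cluster 3 of both brains. Ifi27l2a did not: it was at 32.3 CPM in metastasis 1 and 187 in metastasis 2, against 10.7 and 33.0 in cluster 0, so that cluster 3 of the first brain lay just under cluster 0 of the second.

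The remaining effectors had smaller differences. Ifi35 was at 235 and 208 against 74.6 and 94.8 CPM, and Lgals3bp, a secreted glycoprotein, at 100.1 and 100.4 against 36.9 and 37.7. Trafd1, a negative regulator of innate signalling, was at 52.4 and 36.3 against 12.9 and 14.3 CPM. Parp14, an ADP-ribosyltransferase, Dtx3l, a ubiquitin ligase, Sp100, of nuclear bodies, and Tor3a, an ATPase of the endoplasmic reticulum, had mean log2 differences of 1.46, 1.22, 1.26 and 1.37. None of these overlapped between the clusters, which is likely in advance for genes chosen as 2-fold higher within each brain. The share over all genes was not computed.

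Zbp1, a sensor of nucleic acids in the Z form that can start necroptosis, was at 86.9 and 90.8 CPM in cluster 3 and 8.38 and 16.7 in cluster 0 (log2 2.78 and 2.14). Of 7 nucleic acid sensors that entered (median 0.47), Zbp1 was the 1 past the fold. It entered through its level in cluster 3, so this count has no weight by itself. Of 4 sensors with at least 10 CPM in cluster 0 in both brains, 0 passed. Ddx58 (RIG-I), a sensor of viral RNA, was at 27.4 and 21.1 against 8.43 and 9.82 CPM, past the fold in metastasis 1 only (1.27 and 0.82). The genes of proteins through which ZBP1 acts were not past it: Ripk3, its partner kinase, was at 33.8 and 41.8 against 34.5 and 34.3 CPM, and Mlkl, which breaks the membrane, at 40.2 and 35.9 against 23.01 and 27.78. Of 15 cell death genes that entered, Zbp1 and Xaf1 passed and the median was 0.12. Of 14 with at least 10 CPM in cluster 0 in both brains, 1 passed (Xaf1).

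Ly6a (Sca-1), a lipid-anchored surface protein, was at 133 and 213 CPM in cluster 3 against 29.3 and 32.1 in cluster 0 (log2 2.01 and 2.55). Its difference was larger in metastasis 2, as for 4 of the 35 genes (with Ccl2, Ccl7 and Ifi27l2a). Of its family 3 genes entered (median 0.95) and Ly6a alone passed. Its relative Ly6e, at 678 and 972 against 364 and 478 CPM, passed the fold in metastasis 2 only (0.89 and 1.02). Ly6a, Ly6e and the endothelial marker Ly6c1 belong to a family of similar sequences, among which reads could be split.

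**Figure D2:**
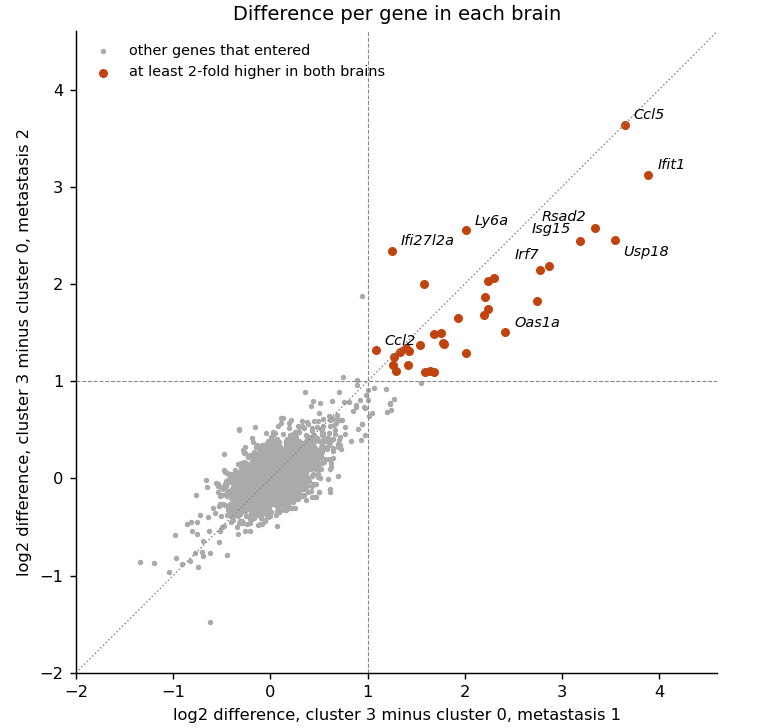
Log2 difference between clusters 3 and 0 for each gene that entered, in metastasis 1 (horizontal) and metastasis 2 (vertical). Orange points are the 35 genes at least 2-fold higher in both brains, grey points the other genes, dashed lines mark a 2-fold difference and the dotted line equal values. Of the 35 points, 31 lie below the dotted line, Ccl5 nearly on it and Ly6a and Ifi27l2a above it.

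Between the 2 brains most of the 35 genes differed in the same direction. Of the 35 genes, 31 had the larger difference in metastasis 1 and 4 in metastasis 2. In cluster 3 itself the level was higher in metastasis 1 for 21 genes, and in cluster 0 it was higher in metastasis 2 for 27. The same shares over all genes that entered were not computed, so whether this is particular to the 35 genes is not known. With 1 suspension each, the brain and its handling cannot be told apart.

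Of the chemokine genes, 3 were past the fold. Ccl5, which attracts T cells and monocytes, had the largest mean difference of all genes that entered: 194 and 208 CPM in cluster 3 against 10.9 and 12.1 in cluster 0 (log2 3.65 and 3.64). Ccl7, a ligand of the monocyte receptor CCR2, was at 68.3 and 91.0 against 19.4 and 18.9 CPM (1.59 and 2.00). Ccl2, the main CCR2 ligand, was high in both clusters, at 273 and 245 against 127 and 95.3 CPM (1.08 and 1.32). Of the 4 chemokines that entered these 3 passed (list median 1.498), and Ccl25, a chemokine of gut and thymus, did not (15.9 and 12.6 against 12.27 and 14.99 CPM). Without the level filter, 17 chemokine genes of 27 in the table had a UMI in both brains, with a median of 0.07. Of these, 11 were higher in both brains (64.7%) and 1 was lower in both. Over all 14960 genes under that setting, 31.7% were higher in both. Cxcl10, an attractant of activated T cells through CXCR3, was too low to enter, at 27.9 and 17.2 against 2.18 and 2.12 CPM.

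Interferon genes themselves were almost unseen. None of 18 ligand genes entered. Ifnb1 had 3 and 5 UMIs in cluster 3, in 2 and 3 cells, and 1 and 0 in cluster 0. Ifng had 0 and 1 UMI in cluster 3. Counts this low set no level and allow no fold.

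The receptors stood at close levels in both clusters. Ifnar1 was at 9.29 and 10.9 CPM in cluster 3 and 9.26 and 10.7 in cluster 0, and Ifnar2, the other chain of the type I receptor, at 13.9 and 15.8 against 11.1 and 13.2. The interferon gamma receptor chains Ifngr1 (13.9 and 12.2 against 14.3 and 12.8 CPM) and Ifngr2 (18.1 and 16.4 against 18.8 and 15.6) were as close. Downstream of them the levels parted. Stat2, a transcription factor of the type I pathway, was at 13.5 and 11.8 against 3.76 and 5.21 CPM, below the level needed to enter. Irf9, its DNA-binding partner, was at 26.3 and 20.1 against 8.30 and 9.70 CPM (1.24 and 0.77). Irf7, which drives interferon genes and is itself induced, was the most different of these factors at 134 and 132 against 14.1 and 25.1 CPM (2.86 and 2.19). Irf3, which interferon does not induce, was at 33.6 and 22.8 against 31.1 and 23.8 CPM.

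Over 12 receptors, STATs and IRFs that entered the median was 0.25. Among 5 brakes on the pathway that entered (median 0.24), Usp18 alone passed. Usp18 entered through its level in cluster 3, so this count has no weight by itself. Of 3 brakes with at least 10 CPM in cluster 0 in both brains, 0 passed. Socs1, which blocks JAK kinases, was at 33.2 and 28.2 against 23.01 and 25.79 CPM. Socs3, which acts mainly on IL-6 type receptors, was at 61.7 and 49.4 against 57.5 and 55.3 CPM. Ptpn2, a STAT phosphatase, was at 28.3 and 24.1 against 23.76 and 20.04 CPM.

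Of the MHC class I and peptide loading genes, most were higher in cluster 3 and none was past the fold in both brains. B2m, the light chain of MHC class I, was at 2075 and 2110 CPM in cluster 3 and 1359 and 1388 in cluster 0 (log2 0.61 and 0.60), and the heavy chain H2-K1 at 195 and 205 against 123 and 131 (0.64 and 0.62). Tap1, a chain of the peptide transporter, was at 65.4 and 73.8 against 25.8 and 36.7 CPM (1.19 and 0.92). The median of the 11 genes of this list that entered was 0.61, none past the fold. The chaperones Calr (476 and 455 against 466 and 447 CPM) and Pdia3 (147 and 133 against 147 and 117) were nearly level. H2-T23 (Qa-1b), the mouse ligand of the inhibitory receptor NKG2A, went the other way, at 22.8 and 11.3 against 32.9 and 23.3 CPM (-0.45 and -0.79). MHC class I genes resemble each other, so this low count may depend on how reads were shared among them. Of 8 ligands of immune cell receptors that entered, 1 passed: Lgals9 (galectin-9), which binds TIM-3, at 55.7 and 61.0 against 19.8 and 25.7 CPM; the median was 0.12. Cd274 (PD-L1) was too low to enter, at 2.43 and 1.62 against 0.48 and 0.90 CPM. 

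Proteasome genes differed less than the effectors. All 5 immunoproteasome genes were higher in cluster 3 in both brains: Psmb9 was past the fold at 61.2 and 82.6 against 19.8 and 34.0 CPM, Psmb8 just short of it at 331 and 367 against 156 and 190, and Psmb10, Psme1 and Psme2 had mean differences of 0.81, 0.59 and 0.60. Psmb6, Psmb7 and Psmb5 encode the constitutive subunits that these catalytic subunits replace. They were at 572 and 612 against 515 and 569 CPM, 423 and 405 against 415 and 401, and 411 and 395 against 384 and 372. The median of 14 constitutive genes was 0.09 and none was past the fold. By any amount 11 of the 14 were higher in both brains and 1 was lower, beside 34.1% higher over all genes.

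Several interferon-responsive genes were already high in cluster 0. Bst2 (tetherin), which holds budding viruses at the membrane, was at 1746 and 1726 CPM in cluster 3 and 993 and 999 in cluster 0. Ifitm3, which blocks viral fusion, was at 2081 and 2387 against 1225 and 1386 CPM. Both differed by less than 2-fold in each brain. Ifi27 did not keep a direction, at 194 and 112 against 138 and 128 CPM (0.47 and -0.19).

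Over the whole type I interferon list, 28 of 51 genes in the table entered and 21 of those passed the fold, beside 0.526% of all genes, with a median of 1.52. Many of the 28 entered through their level in cluster 3, so the count has no weight by itself. Of the 14 with at least 10 CPM in cluster 0 in both brains, 7 passed (median 1.13), beside 0.227% of 6620 genes under that filter. Without any filter, 48 of the 50 list genes with a UMI were higher in both brains and 0 were lower in both, beside 31.7% of 14960 genes that were higher. Low genes of the list included Ifit3 (10.2 and 9.49 against 1.09 and 1.06 CPM) and Mx1 (4.201 and 3.935 against 0.83 and 0.41).

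Other programmes differed less between the clusters than the type I interferon list did. The medians were -0.06 for S phase, -0.03 for G2 and M phase, -0.03 for ribosomal proteins and 0.12 for glycolysis and hypoxia, with 0 genes of each past the fold. The NF-kB list had a median of 0.27, and the adhesion molecule Icam1 was at 47.7 and 24.6 against 22.5 and 15.1 CPM. MHC class II genes had a median of 0.15, epithelial and mesenchymal genes 0.14, serine and one-carbon enzymes 0.11 and the actin and tubulin controls -0.01. Immediate early genes, which respond to stress and dissociation, had a median of 0.31. By any amount, 11 of 12 immediate early genes were higher in both brains and 1 was lower. Of 7 NF-kB genes, 6 were higher in both and 0 were lower. Genes encoded in mitochondria had a median of -0.22, with mt-Nd5 against that direction at 159 and 118 against 84.1 and 68.9 CPM. Of 12 mitochondrial genes 9 were lower in both brains and 2 higher, and of 26 ribosomal protein genes 17 and 3. Over all 6656 genes that entered, 2272 were higher (34.1%) and 2207 lower. The median share of mitochondrial UMIs per cell was 0.92% and 0.84% in cluster 3 and 1.15% and 0.98% in cluster 0.

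**Figure D3:**
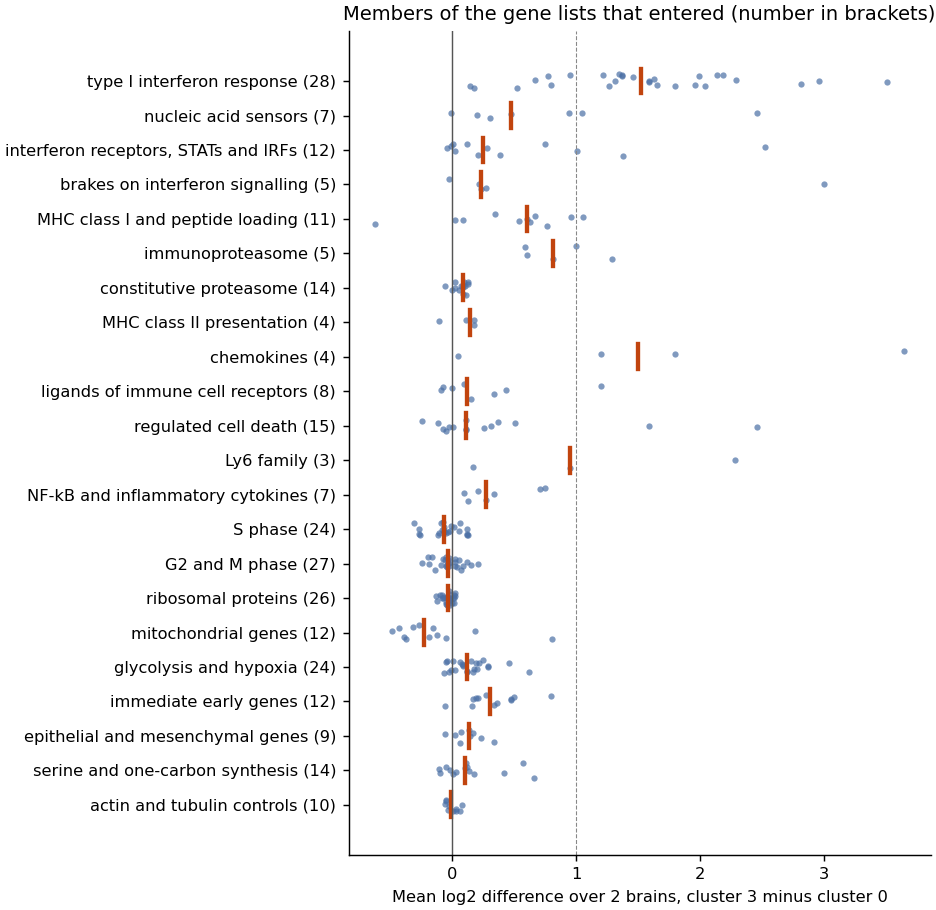
Log2 difference between clusters 3 and 0, as the mean of the 2 brains, for the genes of each fixed list that entered. Lists with at least 3 such genes are shown; each point is a gene, the bar is the median of the list and the dashed line marks 2-fold higher; the type I interferon list has a median of 1.52 and the constitutive proteasome 0.09.

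On the scale with 5 CPM added, no gene was 2-fold lower in both brains. At 1 CPM added, B230312C02Rik and Gm32913 were. The lowest was B230312C02Rik, an unnamed transcript, at 46.2 and 24.6 CPM in cluster 3 against 100 and 52.8 in cluster 0. Lepr, the leptin receptor, was at 67.2 and 54.2 against 131 and 104 CPM. Emilin1, a protein of elastic fibres, was at 31.4 and 27.2 against 78.6 and 54.1 CPM, and Plk4, the kinase that starts centriole copying, at 247 and 195 against 416 and 372. The 2 clusters did not overlap for any of these 4 genes, which is likely in advance for genes picked as among the lowest in both brains. How many of all genes did not overlap was not computed. B230312C02Rik nevertheless differed nearly as much between brains as between clusters.

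The promoters of several of these genes hold the core of the interferon-stimulated response element. The core was searched as GAAANNGAAA on both strands in 300 bases around each transcription start (250 before, 50 after; RefSeq, GRCm38.p6). It was found for 18 of 41 matched genes of the type I interferon list (43.9%, 95% exact interval 28.5 to 60.3) and for 1079 of all 27025 genes with a window (3.99%). The gamma-activated site, searched as TTCNNNGAA, was found for 5 of the 41 (12.2%) and for 9.55% of all; the motifs were counted separately and could overlap. Of the 35 genes 24 had a window (68.6%), too few for a share of their own, and 9 of these held the core. Irf7, Ifi44, Oasl1, Oasl2 and Cmpk2 had a window without a match. The stretches shown were chosen because they hold a match, from genes past the fold plus Cxcl10; capitals mark each match and overlapping matches run together, read along the strand of the gene.
Isg15 (chr4:156200850-156200921, minus strand, matches 56 to 78 bases before the start): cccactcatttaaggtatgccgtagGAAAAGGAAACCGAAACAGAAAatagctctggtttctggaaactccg
Ifit1 (chr19:34640760-34640838, plus strand): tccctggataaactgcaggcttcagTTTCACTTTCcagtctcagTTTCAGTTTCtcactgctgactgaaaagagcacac
Rsad2 (chr12:26456538-26456597, minus strand): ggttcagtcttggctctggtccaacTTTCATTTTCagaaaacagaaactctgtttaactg
Oas1a (chr5:120907526-120907570, minus strand): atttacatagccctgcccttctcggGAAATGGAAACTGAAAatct
Gbp3 (chr3:142559974-142560039, plus strand): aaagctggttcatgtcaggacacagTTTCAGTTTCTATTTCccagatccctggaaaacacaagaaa
Apol9a (chr15:77411099-77411164, minus strand): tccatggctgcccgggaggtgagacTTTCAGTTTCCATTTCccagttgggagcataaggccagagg
Cxcl10 (chr5:92349068-92349127, minus strand): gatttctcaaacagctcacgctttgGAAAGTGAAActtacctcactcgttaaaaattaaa
Isg15 has 3 overlapping matches, Ifit1 has 2 apart from each other, and Oas1a, Gbp3 and Apol9a have 2 that overlap. The Apol9b promoter holds the same 66 bases as the Apol9a stretch. A match says that the letters are there, not that a factor binds.

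Set beside all clusters, cluster 3 stood above the clusters most like it for most of these genes, and below some leukocyte clusters. For 28 of the 35 genes its level was above clusters 0, 1, 4 and 5 in both brains. It was the highest of all 13 clusters in both brains for 3 (Ifi35, Apol9a and Apol9b), and Bst2, which is not among the 35, was also highest there. Being above cluster 0 was fixed by the choice of the 35 genes. The same shares over all genes that entered were not computed, so these counts are description only. The type I interferon list summed to 7306 and 7660 CPM in cluster 3, 3601 and 3985 in cluster 0, and 4202 and 4955 in cluster 1, while the leukocyte cluster 2 reached 17100 and 16210. Ccl5 was far higher in cluster 8, at 1763 and 2909 CPM, and Ly6a in the endothelial cluster 6, at 1127 and 1013.

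For Isg15 the difference was spread over most cells, while Zbp1, Ifit1 and Ccl5 were each seen in fewer. Each cell was thinned to 3000 UMIs, which left out 2 and 8 cells of cluster 3 and 0 and 2 of cluster 0. Isg15 was then seen in 68.8% (63.4 to 73.8) and 55.8% (52.4 to 59.1) of cluster 3 cells and 14.5% and 15.4% of cluster 0 cells; unthinned the shares were 89.1% and 85.0% against 39.5% and 44.8%. Thinned shares of Zbp1 were 26.2% and 23.1% against 2.26% and 5.23%, and those of Ifit1 were 25.9% and 14.6% against 1.16% and 1.13%. For Ccl5 the shares were 16.2% and 13.6% against 3.35% and 3.64%.

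RNA free in the pooled suspension gives UMIs in any droplet, and cells of another type show how many. In cluster 9, rich in choroid plexus markers and with a median of 5371 and 5337.5 UMIs per cell, Zbp1 was seen in 0 of 94 thinned cells of metastasis 1, which allows a share of up to 3.19% of cells with a UMI at this depth, and in 3.12% in metastasis 2. Ccl5 was seen there in 2.13% and 3.12%, below cluster 3 and close to cluster 0. Isg15 (27.7% and 31.2%) and Ifit1 (24.5% and 32.8%) were seen there more often than in cluster 0, so for these genes cluster 9 gives no background level. The choroid markers themselves, summed to 683 and 650 CPM in cluster 3 and 726 and 624 in cluster 0, beside 363300 and 327800 in cluster 9. No correction for free RNA was made.

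The per-cell share of UMIs on the type I interferon list had a median of 70.0 and 74.0 per 10000 UMIs in cluster 3 and 34.0 and 37.1 in cluster 0. Its 10th and 90th percentiles in cluster 3 were 40.2 and 112 in metastasis 1 and 45.4 and 110 in metastasis 2. The ranges of the clusters overlapped: 32.87% and 31.75% of cluster 0 cells were above the 10th percentile of cluster 3, and 22.05% and 27.39% of cluster 3 cells were below the 90th percentile of cluster 0. Fewer lay beyond the median of the other cluster: 1.59% and 2.12% of cluster 0 cells were above the cluster 3 median, and 6.83% and 4.08% of cluster 3 cells were below the cluster 0 median. Cluster 1 reached further, with 11.7% and 16.9% of its cells above the cluster 3 median. Without the 4 abundant genes Bst2, Ifitm3, Ly6e and Ifitm2, a cluster 3 cell held a median of 26 and 23 UMIs of the list and a cluster 0 cell 6 and 7.

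**Figure D4:**
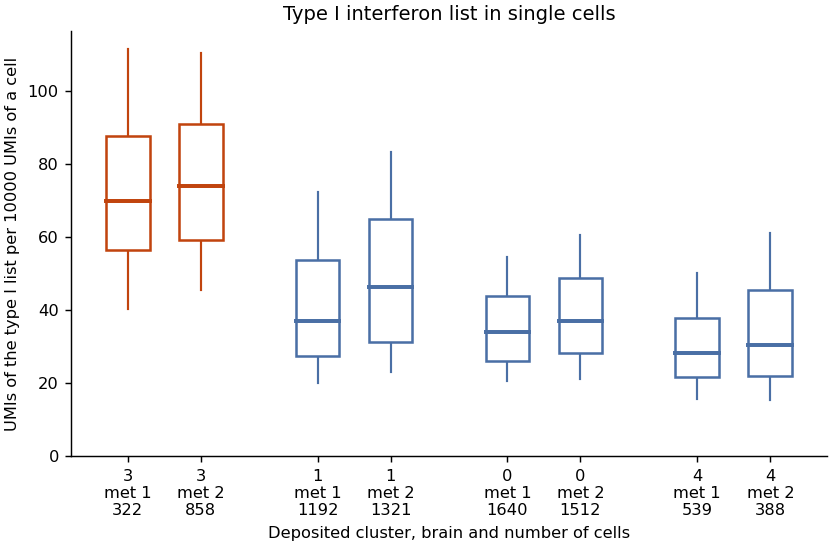
UMIs of the type I interferon list per 10000 UMIs of a cell (vertical axis), by cluster and brain. Boxes span the quartiles with the median as a line and whiskers run from the 10th to the 90th percentile; the medians of cluster 3 are 70.0 and 74.0, those of cluster 0 34.0 and 37.1.

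Within cluster 3 the effector genes varied together, and by rank correlation Ccl5 hardly followed them. Over cells thinned to 5000 UMIs (311 and 837 cells, which share library and depth), the rank correlation of a gene with the rest of the list was 0.57 and 0.44 for Isg15, 0.49 and 0.36 for Usp18 and 0.44 and 0.37 for Ifit1. It was weaker for Zbp1 (0.22 and 0.26) and Ly6a (0.21 and 0.13), and -0.05 and 0.03 for Ccl5. Counts per cell are low, so weak values are given as description only. The summed cell cycle genes had 0.06 and 0.05. The mean showed more for Ccl5 than the ranks did. In the same thinned cells, those with a Ccl5 UMI held 13.4 and 11.5 UMIs of the rest of the list. Cells without one held 11.6 and 9.27.

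Chemokine UMIs were gathered in few cells. The 5% of cluster 3 cells with the most UMIs of a gene (16 and 42 cells) held 68.8% and 80.8% of its UMIs for Ccl5, 55.7% and 63.3% for Ccl7 and 36.7% and 57.7% for Ccl2. The same measure was 23.5% and 25.8% for Isg15, 41.3% and 49.8% for Rsad2 and 12.6% and 14.1% for Bst2. Ccl5 and Ccl7 were the 2 of 35 genes with at least 50% in both brains, and 13 had under 30% in both. Few UMIs give a high share by counting alone, and the share expected from counting was not computed. Ccl5 had 876 and 2695 UMIs. Ly6a, with 603 and 2760 UMIs, had shares of 27.0% and 37.6%. Single cells held up to 127 and 274 Ccl5 UMIs. For Spp1, just outside the fold, 104 of 159 UMIs in metastasis 1 were in 1 cell.

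**Figure D5:**
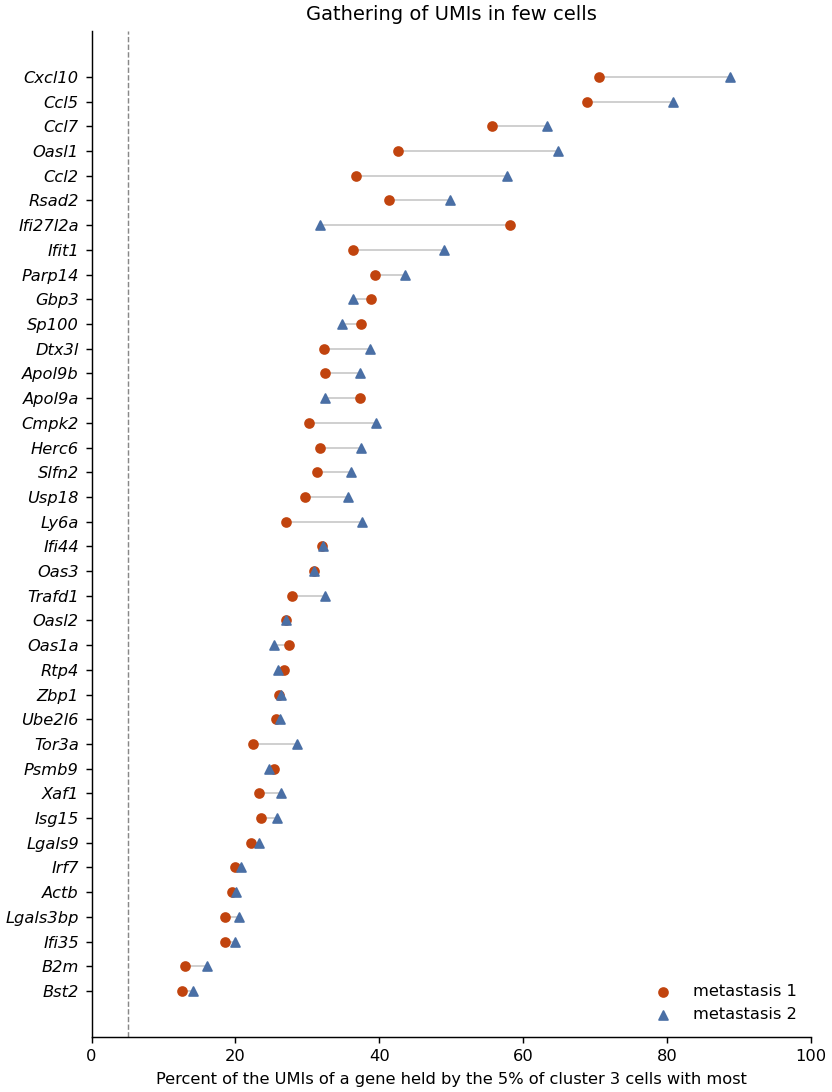
Share of a gene's UMIs in cluster 3 that lay in the 5% of cells with the most UMIs of that gene (horizontal axis, percent), for metastasis 1 (circles) and metastasis 2 (triangles), over 34 of the 35 genes and Cxcl10, Bst2, B2m and Actb. The dashed line at 5% is the share if every cell held the same number; Ccl5 is at 68.8% and 80.8% and Isg15 at 23.5% and 25.8%.

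Cells with at least 10 Ccl5 UMIs, a limit chosen after the values were seen, numbered 22 (6.83%) and 56 (6.53%) in cluster 3 and 0 and 2 in cluster 0. They held 77.7% and 86.8% of the Ccl5 UMIs of cluster 3. Without them Ccl5 was at 46.4 and 29.9 CPM in cluster 3 against 10.9 and 10.3 in cluster 0, so that its level there was still past the 2-fold limit. Their median sum of the 6 leukocyte markers was 0 UMIs in both brains, as in the other cluster 3 cells, and their median depth was 14663 and 15985.5 UMIs against 13780.5 and 13912.5.

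Some other genes were higher in these Ccl5-rich cells. Of the other 34 genes past the fold, 5 were at least 2-fold higher in them than in the rest of cluster 3 in both brains: Oasl1, Ccl2, Ccl7, Rsad2 and Ifit1. Over all genes that had entered, 0.105% were. By any amount, 13 of the 34 were higher in both brains and 12 lower, beside 22.7% higher and 32.8% lower over all genes. Oasl1 was at 81.8 and 135 CPM against 24.5 and 12.5, and Ccl2 at 635 and 685 against 246 and 208. Without the Ccl5-rich cells of both clusters, Oasl1 still differed by 2.02 and 1.23 between clusters 3 and 0 on the log2 scale, but its mean level over the 2 clusters in metastasis 2, 7.47 CPM, was then too low to enter. Ccl2 differed by 0.93 and 1.09, just under the 2-fold limit in metastasis 1. Cxcl10 was at 113 and 108 against 21.4 and 9.39 CPM, and Tnf, an inflammatory cytokine, at 37.7 and 12.7 against 8.32 and 2.68. Isg15 was higher by less than 2-fold, at 950 and 770 against 556 and 385 CPM. Zbp1 (78.6 and 83.8 against 87.5 and 91.4 CPM) and B2m (2070 and 2384 against 2075 and 2086) were close to the rest. Of the few Ifnb1 UMIs in cluster 3, 1 of 3 and 5 of 5 were in Ccl5-rich cells. Since the cells were picked on Ccl5, these values are a description without a test.

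Surface antibodies were not among the genes and can be tested, with the same 2 suspensions in both clusters. CD45, the pan-leukocyte protein, made up 359 and 334 of 1000 tags in cluster 3 and 272 and 283 in cluster 0 (log2 0.40 and 0.24). Its p was 0.333 by an exact permutation test (two-sided) that ignored the pairing of the clusters within a suspension. That is as low as 2 against 2 can go, and 0.4 adjusted over 6 antibodies, so no antibody could pass 0.05. Within brains, by exact sign flips, the p of CD45 was 0.5 (two-sided), the smallest that 2 brains allow. CD11b, a myeloid integrin, was at 359 and 408 against 420 and 427 tags per 1000, and CD86, a costimulatory ligand, at 104 and 88.9 against 110 and 106. Many CD45 tags lay in few cells: 7 and 13 cluster 3 cells with over 20 CD45 tags held 44.0% and 38.6% of its tags. Without such cells, a limit set after the values were seen, the mean was 1.75 and 1.79 tags per cell in cluster 3 and 1.89 and 1.88 in cluster 0. The median was 2 and 1 tags in cluster 3 and 2 and 2 in cluster 0, beside 116 and 118 in the leukocyte cluster 2.

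The hashing antibody of a cell's own brain was also read more often in cluster 3. Its mean was 166 and 306 tags per cell in cluster 3 and 115 and 236 in cluster 0, ratios of 1.44 and 1.29. The other 3 hashing antibodies together stood at 8.32 and 4.95 against 8.06 and 4.69 tags. The exact permutation test of the own hashing tag over suspensions gave p = 0.667, as the brains differed by more than the clusters did. Within brains, by exact sign flips, p was 0.5 (two-sided), the smallest that 2 brains allow. What the hashing antibodies bind is not given in the sources used here.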

How the data were processed

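The authors deposited raw UMI counts per gene and cell, raw tag counts per antibody and cell, and a per-cell table with the hashing call, the cluster number and the percent of mitochondrial UMIs. The submitters' processing notes name mm10, Cell Ranger 3.0.2 and Seurat 3.0.1, without their settings. Every deposited cell was kept. UMI counts were summed per brain and cluster and scaled to CPM (a total of 1000000 per sum). Python 3.11.15 with numpy 2.4.6, scipy 1.17.1, pandas 2.3.3 and scanpy 1.11.5 was used, with R 4.3.3, edgeR 4.0.16 and DESeq2 1.42.0 for other scaling factors only. Scrublet, at an expected rate of 8%, marked 220 of 12421 cells (1.77%), of which 0 and 2 were in cluster 3; they were kept. Thinning drew UMIs without replacement.

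The cells, the 24 gene lists and the 20 marker lists were chosen with earlier results of these data known. The genes named were the given markers, the 20 most higher and 10 most lower genes by the smaller difference of the 2 brains, and members of each list past the fold (the 6 most different where more passed) or near 0 at a high level; other genes named for context were chosen after their values were seen. The comparison was tested on simulated data. Precision is set by the UMI sums and by there being 2 brains. Promoters come from RefSeq, matched by symbol. Values of 1 of the 35 genes are not reported here.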

Additional observations from a re-analysis of the deposited data

How the results depend on the processing

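The difference of each of the 35 genes stayed above 0 in 595 of 595 values over 17 alternatives. Part of this was fixed in advance. Another pseudocount or level filter cannot turn the sign of a gene higher in both brains, nor can leaving out 1 brain. The count of genes at least 2-fold higher was 35 in the reported setting. It was 17 at a pseudocount of 20 CPM, 15 with the level filter on cluster 0 and 16 against cluster 1. In the brain left when the other was dropped it was 41 to 54. All 35 remained past the fold with TMM factors and with DESeq2 size factors. Without either brain they remained by the rule itself, which asks for 2-fold in each brain. A further setting kept cells with at most 2 UMIs over the pan-leukocyte, monocyte, macrophage, microglia, T cell and NK cell lists together. The count of higher genes was then 263, with 189 lower. That kept 9 and 11 cells of cluster 3. These lists hold S100a4, at 243 and 585 CPM in cluster 3 and 226 and 392 in cluster 0. They also hold Sparc, at 403 and 580 against 394 and 486 CPM. Cells left out therefore need not hold leukocyte RNA. The count of lower genes, otherwise 0, was 2 at a pseudocount of 1 CPM, in cells of 5000 to 20000 UMIs, with every cell weighted equally and without Ccl5-rich cells, 3 in cells low in cell cycle genes, 1 in cells without leukocyte UMIs, 41 against cluster 1, 82 against cluster 4, and 1 to 3 with 1 brain left out. For the type I interferon list, 21 genes past the fold became 9 (20 CPM) and 7 (cluster 0 filter). They became 13 (few UMIs of the leukocyte and microglia lists) and 6 (cluster 1). The median of this list, 1.52, became 1.83 (1 CPM), 1.00 (20 CPM), 1.24 (no filter) and 1.13 (cluster 0 filter). It became 1.94 (few UMIs of the leukocyte and microglia lists) and 0.88 (cluster 1). With 1 brain left out it ranged from 1.34 to 1.59.

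Medians near 0 changed sign. Constitutive proteasome was -0.086 and glycolysis -0.34 with few UMIs of the leukocyte and microglia lists. Ribosomal proteins were 0.017 against cluster 1 and 0.036 against cluster 4. The CD45 tag difference, 0.32 on the log2 scale, was 0.49 as the mean per cell; without cells of over 20 CD45 tags it was -0.01 in tags per 1000 and -0.091 as the mean per cell. As means per cell, CD11b was 0.029, CD25 0.07, CD3e 0.114, CD4 0.014 and CD86 0.005, the sign turned. Without the CD45-rich cells CD25 was 0.101, CD3e 0.122, CD4 0.02 and CD86 0.064 in tags per 1000, and CD25 0.02 and CD3e 0.042 as means per cell. The cause was not tested. With the brain as a replicate block, a setting added after seeing the data, the CD45 difference of 0.32 had p = 0.5 by exact sign flips within brains, the smallest 2 brains allow. Limits are the 2 brains, clusters drawn from the genes described, and free RNA.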

Other observations

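Cluster 3 also held 10 cells called to naive 1 and 4 called to naive 2. Their median tag count of the hashing antibody of their own brain was 10 and 8.5, below the 50.5 and 12.5 of the hashing antibodies of the brains with metastases in the same cells. Isg15 was at 388 and 419 CPM in them, from 47 and 6 UMIs, near its level in cluster 3 of the brains with metastases. The 37 and 3 naive calls in cluster 0 had 12 and 4 tags of their own antibody, beside 62 and 40, and 29.0 and 0 CPM of Isg15. Since the cluster numbers were assigned from RNA, such Isg15 levels were likely in advance. The origin of these cells was not tested.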
